A study of Mus musculus with 6 samples.

Results

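The genes of blood clotting and clot removal were followed in mouse liver of animals exposed or not exposed to DEHP (di(2-ethylhexyl) phthalate), a softener of plastics. The list held 35 genes named by symbol, of which 34 had a row among the 41096 annotated rows of the deposited count table, and Kng2 had none. Polyadenylated RNA was sequenced from 3 control livers and 3 livers labelled as exposed, in whose columns the table uses the word High. The labels name no strain, dose, duration, route, age or sex, nor whether each library is a different animal; the p-values therefore cover only the spread among these libraries, which may be technical. Library totals ran from 10410098 to 14229803 counts. Levels are counts-per-million values (CPM) of the library total after TMM scaling, which corrects for differences in composition, and levels of different genes are compared only as CPM per kilobase of the gene length in the table.

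Most clotting proteins are made by hepatocytes and released into plasma as inactive precursors. Tissue factor with factor VII, or the contact system of factor XII, prekallikrein and kininogen, starts a chain of proteases that ends in thrombin, which turns soluble fibrinogen into fibrin. Protein C, protein S, thrombomodulin and tissue factor pathway inhibitor hold the chain in check, and plasmin, cut from plasminogen, dissolves the clot. Several of these proteins need vitamin K to become active, and fibrinogen is an acute phase protein that liver makes in larger amounts under interleukin-6.

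Fibrinogen is a hexamer of pairs of 3 chains, and the 3 genes sit side by side on chromosome 3, with 11001 bases between Fgg and Fga and 6509 between Fga and Fgb in the table's coordinates, Fgb on the opposite strand. Their promoters are shown because the chains were among the 6 most abundant members per kilobase and because the ratios between them are compared here. Each is the 250 bases before the start site, from RefSeq on GRCm38.p6, written 5′ to 3′ on the strand of the gene, for Fgg (plus strand, chr3:83007474-83007723), Fga (plus, chr3:83025903-83026152) and Fgb (minus, chr3:83049864-83050113). Capitals mark matches, on either strand, to GTTAAT (part of the HNF1 site), TTCNNNGAA (STAT), CTGGGA (the core of interleukin-6 response elements) and TTGCNNAA (C/EBP).
Fgg: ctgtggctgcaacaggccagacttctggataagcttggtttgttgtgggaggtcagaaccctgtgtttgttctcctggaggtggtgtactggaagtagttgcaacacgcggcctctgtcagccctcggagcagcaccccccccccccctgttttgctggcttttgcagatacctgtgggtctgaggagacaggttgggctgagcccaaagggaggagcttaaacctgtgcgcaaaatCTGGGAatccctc
Fga: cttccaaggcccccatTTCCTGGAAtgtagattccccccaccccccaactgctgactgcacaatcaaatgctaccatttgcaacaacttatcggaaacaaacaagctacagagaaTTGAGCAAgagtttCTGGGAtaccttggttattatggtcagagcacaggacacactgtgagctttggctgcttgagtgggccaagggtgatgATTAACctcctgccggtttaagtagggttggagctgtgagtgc
Fgb: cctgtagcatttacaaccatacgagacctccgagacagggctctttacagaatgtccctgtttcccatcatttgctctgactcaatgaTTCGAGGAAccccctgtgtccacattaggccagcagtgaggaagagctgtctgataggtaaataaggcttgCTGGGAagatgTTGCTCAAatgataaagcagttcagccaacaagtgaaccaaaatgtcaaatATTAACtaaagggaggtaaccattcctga
Fga and Fgb each held all 4 motifs, with CTGGGA starting 121 and 91 bases before the start and TTCNNNGAA at 234 and 162. The Fgg window held only CTGGGA, 13 bases before the start. Over 32851 promoter windows of this length, 27.0% held CTGGGA, 7.02% TTCNNNGAA, 6.43% GTTAAT and 9.56% TTGCNNAA. Of the 35 members, 26 had a promoter entry, and 9, 4, 5 and 11 of these held the same motifs in that order. A match is a string of letters and not evidence of binding.

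By level, Fgg stood first at 1523 CPM per kilobase over the 6 libraries, followed by Plg (1238), Fgb (1004), Kng1 (865), Hrg (817), Fga (796), Proc (710) and F2 (490). Together the 34 genes took 2.42%, 2.84% and 2.42% of annotated counts in controls 1 to 3, and 1.93%, 2.35% and 2.24% with DEHP. The level dropped from 10.7 CPM per kilobase for Ggcx, the 25th in order, to 1.44 for F3, the next. The 9 members below that gap were F3, Tfpi, Plau, F8, Vwf, Thbd, Procr, Plaur and Plat, genes better known from endothelium and other cells than from hepatocytes. Of these, Plat missed the low-count filter, so 33 members were tested.

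**Figure D1:**
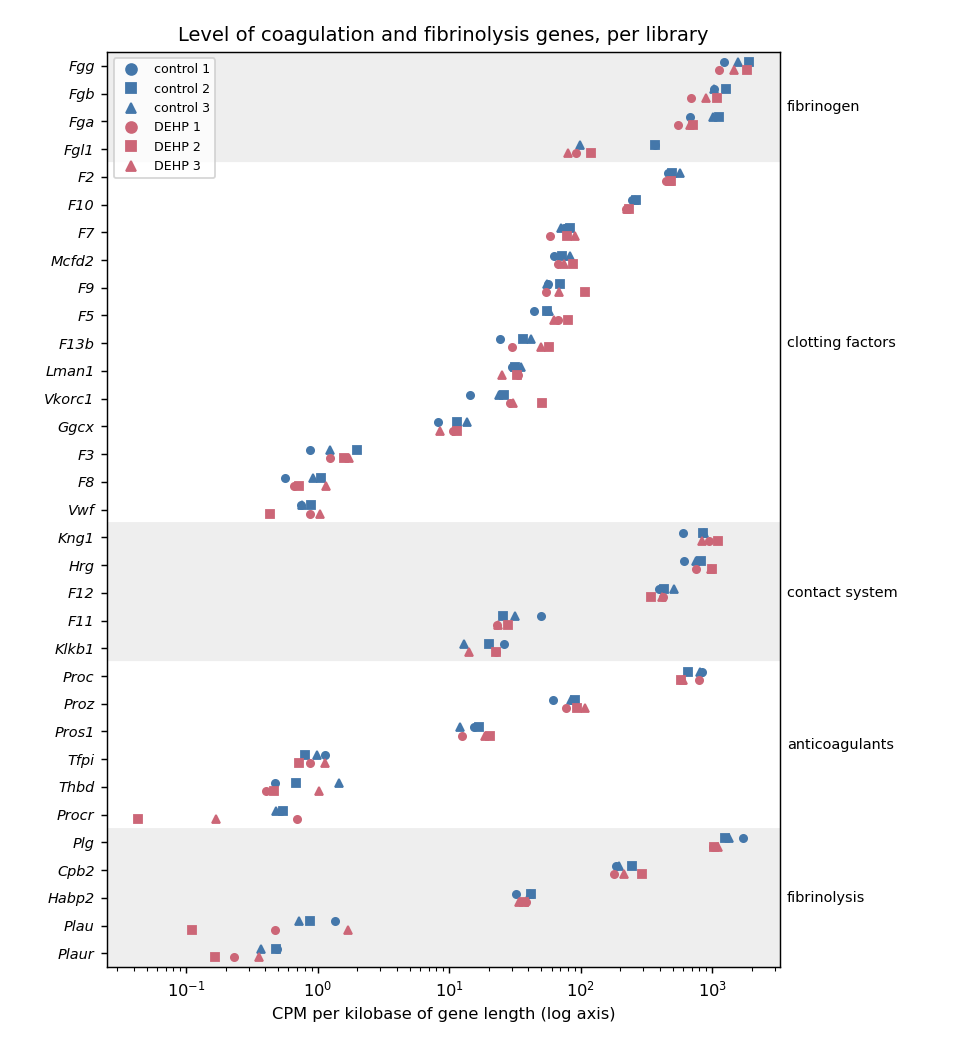
Level of the 33 tested members in CPM per kilobase of gene length (log axis), by class and ordered within it; blue, control and red, DEHP, with a marker for each replicate. The 8 scarcest members, F3, Tfpi, Plau, F8, Vwf, Thbd, Procr and Plaur, lie near or below 1 CPM per kilobase. Fgl1 is the one abundant member with 2 control libraries, whose markers overlap, far to the right of the other 4.

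The comparison asked which of these transcripts differ between exposed and control livers. None of the 33 passed an adjusted p of 0.05 in edgeR's quasi-likelihood test, where 0.0722% of all 12468 genes tested did (9 genes). None passed with DESeq2 (2.18% of all genes called), which gave no adjusted p for Procr and Plaur. None passed with limma-voom (0.0561%) either. With 1 library left out, the share of all genes called was 0.0391%, 0.0467% and 3.1% without control replicates 1, 2 and 3 and 0.147%, 0.0463% and 0.0387% without DEHP replicates 1, 2 and 3, and 1 member passed in 1 of these fits, Fgl1 without control replicate 3. At an unadjusted p of 0.05 there were 2 higher (F5, Vkorc1) and 4 lower (Fga, Fgl1, F11, Plg), 6 of 33 or 18.2%, against 13.1% of all genes (6.11% higher, 6.97% lower). The groups did not overlap for 5 of 33 (15.2%), against 17.7% of all genes (9.17% higher, 8.57% lower). These were F5 and Vkorc1, higher in exposed livers, and F10, Plg and Plaur, lower. Both shares lie near those of the whole table. The median log2 fold change of exposed over control was -0.08 over the members and -0.03 over all genes tested, with 13 members positive and 20 negative. All 6 genes with an unadjusted p under 0.05 are annotated as protein-coding, and in the coordinates of the table they span chr3:85967660-85975213 (Fga), chr8:41543420-41571687 (Fgl1), chr1:175270226-175349395 (F5), chr7:137424629-137427183 (Vkorc1), chr8:45957822-45982828 (F11) and chr17:10419468-10461280 (Plg). The 95% interval of the log2 fold change lay inside -1 to 1 for 24 of 33, and for 6891 of the 12468 genes tested. For those a change of 1 in either direction lies outside the interval.

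**Figure D2:**
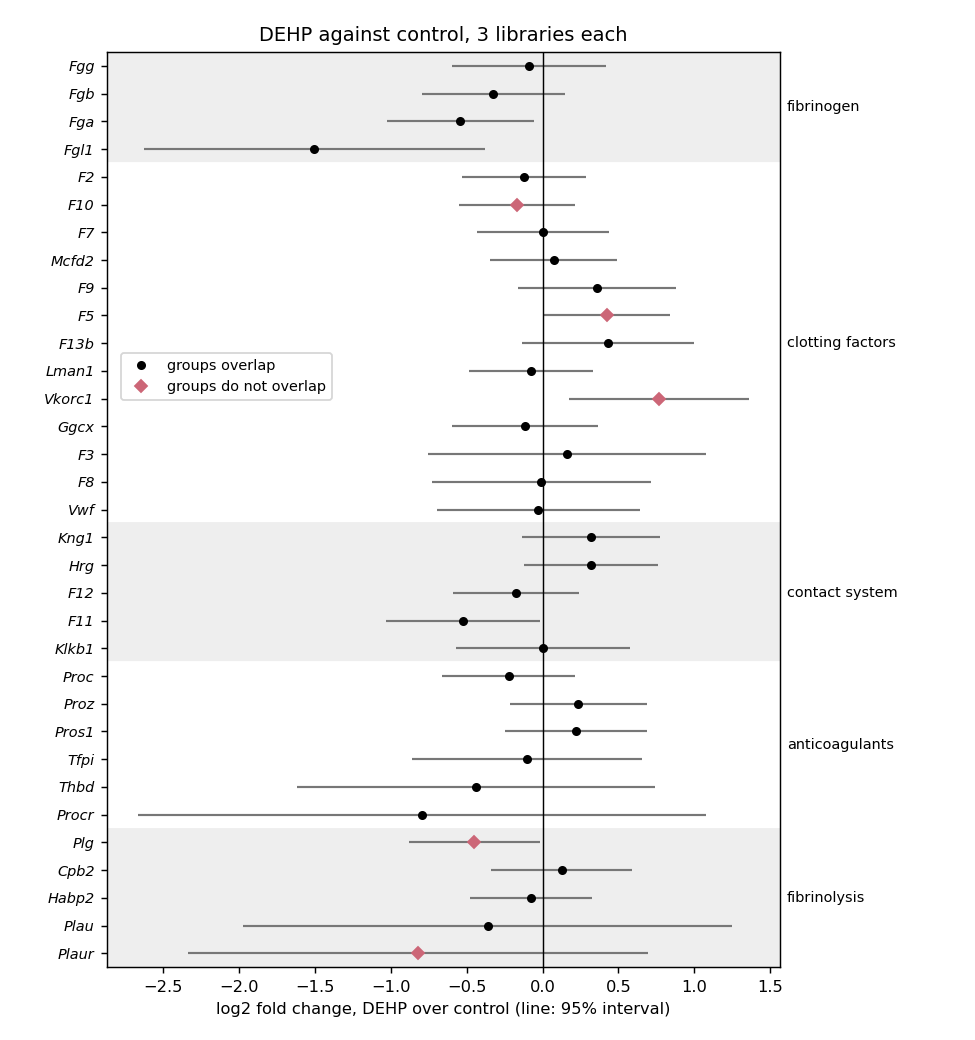
Log2 fold change of each tested member, DEHP over control, with its 95% interval from edgeR; red diamonds mark the 5 members whose 3 exposed libraries all lie beyond the 3 controls. Intervals are wide for the scarce members, from -2.67 to 1.08 for Procr, and narrow for abundant ones such as F2, from -0.53 to 0.29.

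All 4 genes of the fibrinogen class were negative in log2 fold change, with a median of -0.43, which ran from -0.55 to -0.28 with single libraries left out and was -0.14 without control replicates 1 and 2. Fga, the alpha chain, had 2057, 3408 and 3059 CPM in the control libraries (replicates 1 to 3) and 1642, 2170 and 2044 with DEHP. Control replicates 2 and 3 lay above every exposed library, and control replicate 1 within their range. The log2 fold change was -0.54 ± 0.23 (SE, n = 3 a group, 95% interval -1.03 to -0.06, unadjusted p = 0.0313, edgeR adjusted p = 0.345). For Fgb, the beta chain, the values were 3953, 4843 and 3959 CPM in controls and 2628, 4166 and 3400 with DEHP (log2 fold change -0.32 ± 0.22, adjusted p = 0.565). The groups overlapped through DEHP replicate 2, and without DEHP replicate 1 the log2 fold change was -0.14. Fgg, the gamma chain, had 2427, 3809 and 3120 against 2236, 3632 and 2927 CPM (-0.09 ± 0.24, adjusted p = 0.911). In each group replicate 1 was the lowest of the 3 for every chain, though for Fgb control replicates 1 and 3 were nearly equal. DEHP replicate 1 held the lowest level of all 6 libraries for every chain. Without DEHP replicate 1 the log2 fold change of Fgg was 0.10, and without control replicate 2 it was 0.08.

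Ratios of chains within a library do not depend on its scaling. Reads of Fga per read of Fgg were 0.847, 0.894 and 0.980 in controls and 0.734, 0.597 and 0.698 with DEHP (means 0.907 ± 0.067 and 0.677 ± 0.071, SD, n = 3). All 3 exposed ratios lay below all 3 control ratios (two-sided exact permutation p = 0.1, the smallest that 3 against 3 can give, and 0.15 adjusted over the 3 ratios). Fgb per Fgg was 1.63, 1.27 and 1.27 in controls and 1.18, 1.15 and 1.16 in exposed livers. The groups did not overlap (exact permutation p = 0.1, adjusted 0.15, n = 3). Both ratios divide by Fgg, so they are not independent of each other. Fga per Fgb overlapped, with 0.520 to 0.773 in controls and 0.521 to 0.625 with DEHP (exact permutation p = 0.5, n = 3). The ratios were chosen after the levels had been seen.

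**Figure D3:**
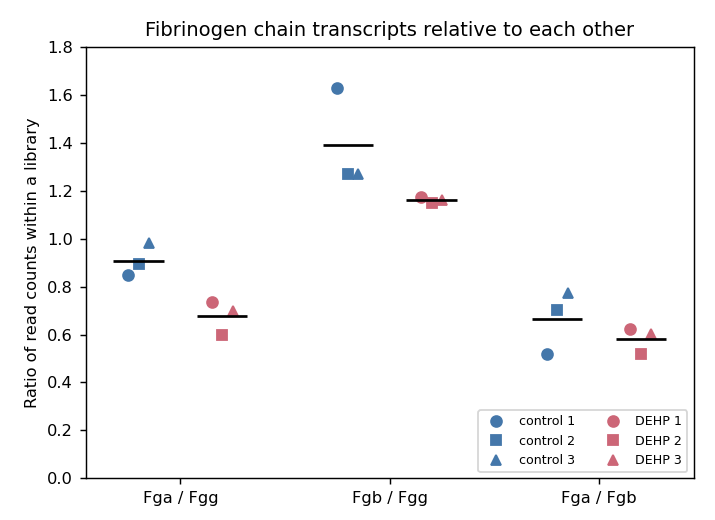
Ratio of read counts of 2 fibrinogen chains within each library; blue, control and red, DEHP, with the mean of 3 libraries as a bar. The Fga to Fgg ratio lies between 0.847 and 0.980 in controls and between 0.597 and 0.734 in exposed livers.

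Fgl1 encodes a fibrinogen-related protein that liver secretes, which takes no part in the fibrin clot. It had the most negative log2 fold change of the 33 tested members. Its CPM were 1629, 1614 and 440 in the controls and 409, 532 and 357 with DEHP. Control replicates 1 and 2 stood apart from the other 4 libraries, and control replicate 3 lay inside the exposed range. The log2 fold change was -1.51 ± 0.48 (95% interval -2.63 to -0.38, unadjusted p = 0.0156, edgeR adjusted p = 0.290). It was -1.88 without control replicate 3 (adjusted p = 7.7e-05, in a fit that called 3.1% of genes) and -0.01 without control replicates 1 and 2.

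The same 2 control libraries stood apart in other lists of genes. Summed over 19 acute phase genes, the level was 48900, 41609 and 20923 CPM in controls and 16298 to 22080 in exposed livers. Hp and Hpx were the largest parts, at 23965, 15810 and 8305 CPM and at 15969, 15735 and 6745 CPM in controls. Not every gene followed the split, and Crp had 196, 360 and 334 CPM in controls and 263 to 400 in exposed livers. Of the 19, 14 were negative in log2 fold change and 5 positive. None of these 19 passed, 7 had an unadjusted p under 0.05 and a lower level with DEHP, where 6.97% of all genes did, and the median was -0.75. Over 18 interferon-stimulated genes with a row the sum was 4045, 3163 and 361 CPM in controls and 324 to 386 in exposed livers, with 15 of 17 tested lower at that p, against the same 6.97%. Over 12 Kupffer cell and macrophage markers it was 1134, 1027 and 279 CPM in controls and 298 to 441 in exposed livers, with 5 of 12 lower, again against 6.97%. No interferon or macrophage gene passed an adjusted p of 0.05 in edgeR either. The groups did not overlap, with a lower level in exposed livers, for 4 of 19 acute phase, 3 of 17 interferon and 0 of 12 macrophage genes. The share over all genes was 17.7%, or 8.57% for lower. No gene of these 3 lists was at 0 in every library. The 8 hepatocyte markers with a row, none at 0 in every library, did not follow that split, with a sum of 133586, 119532 and 164158 CPM in controls and 105318 to 137652 in exposed livers. Alb, albumin, was the largest part of it, at 76985, 75121 and 108084 CPM in controls and 84581, 93621 and 64373 with DEHP. Of these 8 markers, 2 had an unadjusted p under 0.05, against 13.1% of all genes, in opposite directions: Apoa1 (log2 fold change -0.69 ± 0.25) and Cps1 (0.73 ± 0.28). The part of these lists in the Fgl1 value was not tested. In bulk liver, fewer cells of a type and less RNA per cell cannot be told apart.

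**Figure D4:**
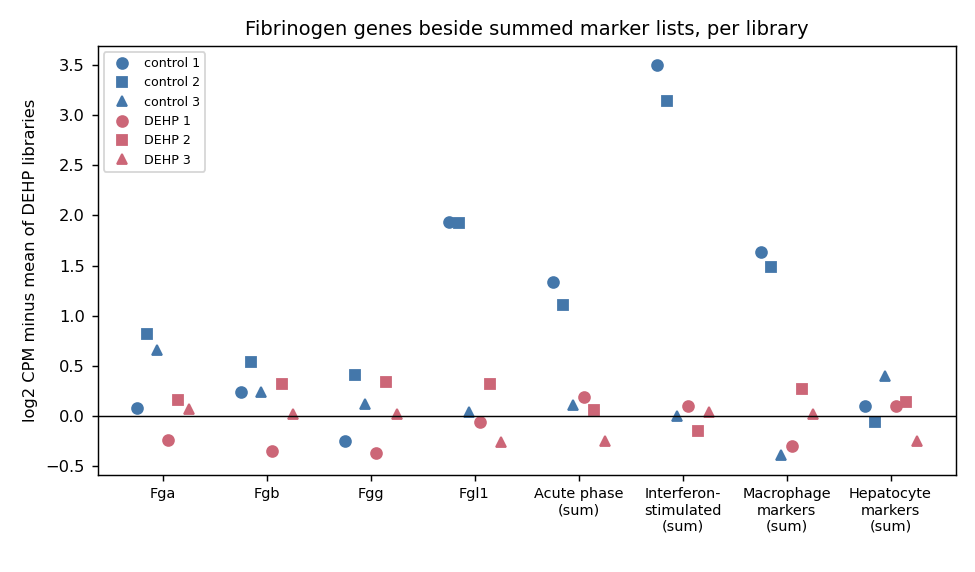
Log2 CPM of the fibrinogen class and of 4 summed marker lists in each library, as the difference from the mean of the 3 DEHP libraries; blue, control and red, DEHP, with a marker for each replicate. For Fgl1, control replicates 1 and 2 lie 1.93 and 1.92 above that mean and control replicate 3 0.05 above it, and the acute phase, interferon and macrophage sums show the same split, while Fga and Fgb do not.

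Among the 13 clotting factors and the genes that help make them, the median log2 fold change was 0.00, with 7 positive and 6 negative, and it ran from -0.073 to 0.18 with single libraries left out. F5, factor V, the cofactor with which factor Xa makes thrombin, had 329, 415 and 423 CPM in controls and 501, 593 and 469 in exposed livers. All exposed libraries were above all controls, and the log2 fold change was 0.42 ± 0.20 (unadjusted p = 0.0483, adjusted p = 0.379). Reads of F5 may include some of Gm16548, a noncoding gene on the other strand inside it with 44 to 120 counts a library, since it is not given whether counting used strand. Vkorc1, the reductase that recycles vitamin K and is blocked by warfarin, had 12.1, 22.1 and 20.2 CPM in controls and 24.4, 42.4 and 25.7 in exposed livers. The groups did not overlap, DEHP replicate 2 was the highest of the 6, and the log2 fold change was 0.77 ± 0.28 (95% interval 0.17 to 1.36, unadjusted p = 0.0153, adjusted p = 0.290). Without DEHP replicate 2 it was 0.48. With no low-count filter, a fit that called 2.41% of genes, Vkorc1 passed (adjusted p = 0.0375) along with Fgl1 (2.25e-04).

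Vkorc1 serves the carboxylase encoded by Ggcx, whose log2 fold change was -0.11 ± 0.22 (adjusted p = 0.870), at 26.5 to 44.5 CPM in controls and 27.6 to 37.5 in exposed livers. The 7 members that carry vitamin K-dependent residues were F2, F7, F9, F10, Proc, Pros1 and Proz. None had an unadjusted p under 0.05, where 13.1% of all genes did. Their median was 0.00, between -0.22 for Proc and 0.36 for F9. Each of the 7 had a 95% interval inside -1 to 1, as did 6891 of the 12468 genes tested. F10, factor X, was tightly grouped, at 673, 713 and 701 CPM in controls and 609, 635 and 614 in exposed livers. The groups did not overlap, yet the difference was small (log2 fold change -0.17 ± 0.18, unadjusted p = 0.361, adjusted p = 0.731). F2, prothrombin, was the most abundant clotting factor per kilobase, with 2127, 2288 and 2627 CPM in controls and 2058, 2214 and 2199 with DEHP (-0.12 ± 0.19, adjusted p = 0.829).

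F7, F10 and Proz lie in a row on chromosome 8 of the table, with gaps of 1499 and 4232 bases, and had log2 fold changes of 0.00, -0.17 and 0.24. F7, factor VII, stood at 131 to 155 CPM in controls and 109 to 169 in exposed livers. F9, factor IX, reached 297 CPM in DEHP replicate 2 against 150 to 191 in the other 5 libraries (0.36 ± 0.24, adjusted p = 0.567), and its log2 fold change was 0.04 without that library. F13b, the carrier subunit of the enzyme that cross-links fibrin, had 61.3, 92.1 and 105.5 CPM in controls and 76.4, 145.4 and 126.8 with DEHP (0.43 ± 0.26, adjusted p = 0.513). Its value was 0.24 without control replicate 1, 0.25 without DEHP replicate 2 and 0.68 without DEHP replicate 1. The cargo receptor pair Lman1 and Mcfd2, which carries factors V and VIII out of the endoplasmic reticulum, had -0.08 ± 0.19 and 0.07 ± 0.19. F8, Vwf and F3 (factor VIII, its carrier von Willebrand factor, and tissue factor) had 2.20 to 14.7 CPM in any library, and log2 fold changes of -0.01 ± 0.34, -0.03 ± 0.31 and 0.16 ± 0.43. F8 overlaps Fundc2 on the other strand, a row with 44 to 101 counts a library against 64 to 134 for F8. Its counts are therefore uncertain if counting did not use strand. Von Willebrand factor is made by endothelium and megakaryocytes. Of 10 platelet markers, 8 missed the low-count filter, and Itga2b, the largest part of their sum, had 12.8, 7.19 and 9.48 CPM in controls and 7.90, 5.84 and 2.89 with DEHP.

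In the contact system 5 of 6 members had a row, and their median was 0.00, between -0.076 and 0.20 with single libraries left out. F11, factor XI, had 111.6, 57.3 and 71.3 CPM in controls and 51.7, 63.0 and 52.3 in exposed livers. Control replicate 1 was far above the rest and the groups overlapped (log2 fold change -0.52 ± 0.24, unadjusted p = 0.0441, adjusted p = 0.374). Without control replicate 1 the value was -0.21, and without control replicates 1 and 2 it was -0.34. Its neighbour Klkb1, prekallikrein, 7346 bases away on the same strand, had 65.3, 50.0 and 32.3 CPM in controls and 56.4, 56.3 and 35.5 with DEHP (0.00 ± 0.26, adjusted p = 0.997). Klkb1 overlaps Cyp4v3 on the same strand, a row with 2814 to 5376 counts a library against 364 to 922 for Klkb1, so its counts are uncertain. Kng1, kininogen, had 1188, 1693 and 1703 CPM in controls and 1871, 2187 and 1656 with DEHP (0.32 ± 0.21, adjusted p = 0.557), the highest level of the class per kilobase. Kng2 is a close relative of Kng1, so the Kng1 count may hold some of its reads. Hrg, the histidine-rich glycoprotein, a plasma protein of the same cystatin family, had 1050, 1421 and 1310 against 1304, 1720 and 1693 CPM (0.32 ± 0.20, adjusted p = 0.537). For both, control replicate 1 was the lowest library, and without it Kng1 was 0.17 and Hrg 0.20. F12, factor XII, had 779 to 996 CPM in controls and 676 to 834 with DEHP (-0.17 ± 0.19, adjusted p = 0.746).

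None of the 6 anticoagulant genes had an unadjusted p under 0.05, where 13.1% of all genes did, and their median was -0.16. It was 0.023 without control replicate 3 and otherwise negative with single libraries left out, down to -0.28. Proc, protein C, the protease that inactivates factors V and VIII, was the most abundant per kilobase, with 1306, 1018 and 1269 CPM in controls and 1235, 902 and 939 with DEHP (-0.22 ± 0.20, adjusted p = 0.686). Its cofactor Pros1, protein S, had 49.6 to 68.5 and 51.4 to 83.0 CPM (0.22 ± 0.22), and Proz, protein Z, a cofactor in the inhibition of factor Xa, 148 to 219 and 186 to 259 (0.24 ± 0.21). With single libraries left out, Pros1 ran from 0.098 to 0.43, and Proz from 0.087, without control replicate 1, to 0.37. The endothelial receptors Thbd (thrombomodulin) and Procr, which together activate protein C, were scarce. Thbd had 1.77, 2.53 and 5.41 CPM in controls and 1.52, 1.74 and 3.82 with DEHP (-0.44 ± 0.55). Procr rested on 40 counts over the 3 controls and 19 over the exposed libraries, 14 of them in DEHP replicate 1 (-0.80 ± 0.87, and -2.22 without that library). Tfpi, the inhibitor of tissue factor, had 4.35 to 6.24 and 3.93 to 6.20 CPM (-0.10 ± 0.35). The 95% intervals ran from -1.62 to 0.74 for Thbd and from -2.67 to 1.08 for Procr. Summed over 14 sinusoidal and vascular endothelial markers, the level was 452 to 556 CPM in controls and 249 to 460 in exposed livers, with 13 of 14 negative and 3 lower at an unadjusted p of 0.05 (6.97% of all genes were), none at 0 in every library, and their part in these values was not tested.

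The fibrinolysis class had a median log2 fold change of -0.36 over 5 tested genes, from -0.49 to -0.075 with single libraries left out. Plg, plasminogen, had 4689, 3448 and 3675 CPM in controls and 2771, 2825 and 3052 in exposed livers. The 3 exposed libraries lay below the 3 controls, with control replicate 1 the highest (log2 fold change -0.45 ± 0.20, 95% interval -0.88 to -0.02, unadjusted p = 0.0420, edgeR adjusted p = 0.370). With single libraries left out the value ran from -0.53 to -0.30. The activators that cut plasminogen were near the limit of detection in these livers. Plat, tissue plasminogen activator, had 6, 7 and 9 counts in controls and 2, 0 and 1 with DEHP, 22 against 3 in all, a ratio of 0.157 per scaled library size (95% exact interval 0.0300 to 0.522, covering counting error only). Plau, urokinase, had 3.19, 2.05 and 1.68 CPM in controls and 1.11, 0.262 and 3.99 in exposed livers, so the exposed libraries spanned the controls (-0.36 ± 0.75). Its receptor Plaur had 1.28, 1.26 and 0.975 against 0.608, 0.436 and 0.934 CPM, on 5 to 18 counts a library. The groups did not overlap, yet control replicate 3 and DEHP replicate 3 both had 11 counts and were apart only by scaling. The log2 fold change was -0.82 ± 0.71 (edgeR unadjusted p = 0.266, adjusted p = 0.670). Cpb2, the carboxypeptidase that protects fibrin from plasmin, had 271 to 363 and 265 to 428 CPM (0.13 ± 0.22), and Habp2, a protease that can activate factor VII and urokinase, 104 to 134 and 109 to 122 (-0.08 ± 0.19).

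**Figure D5:**
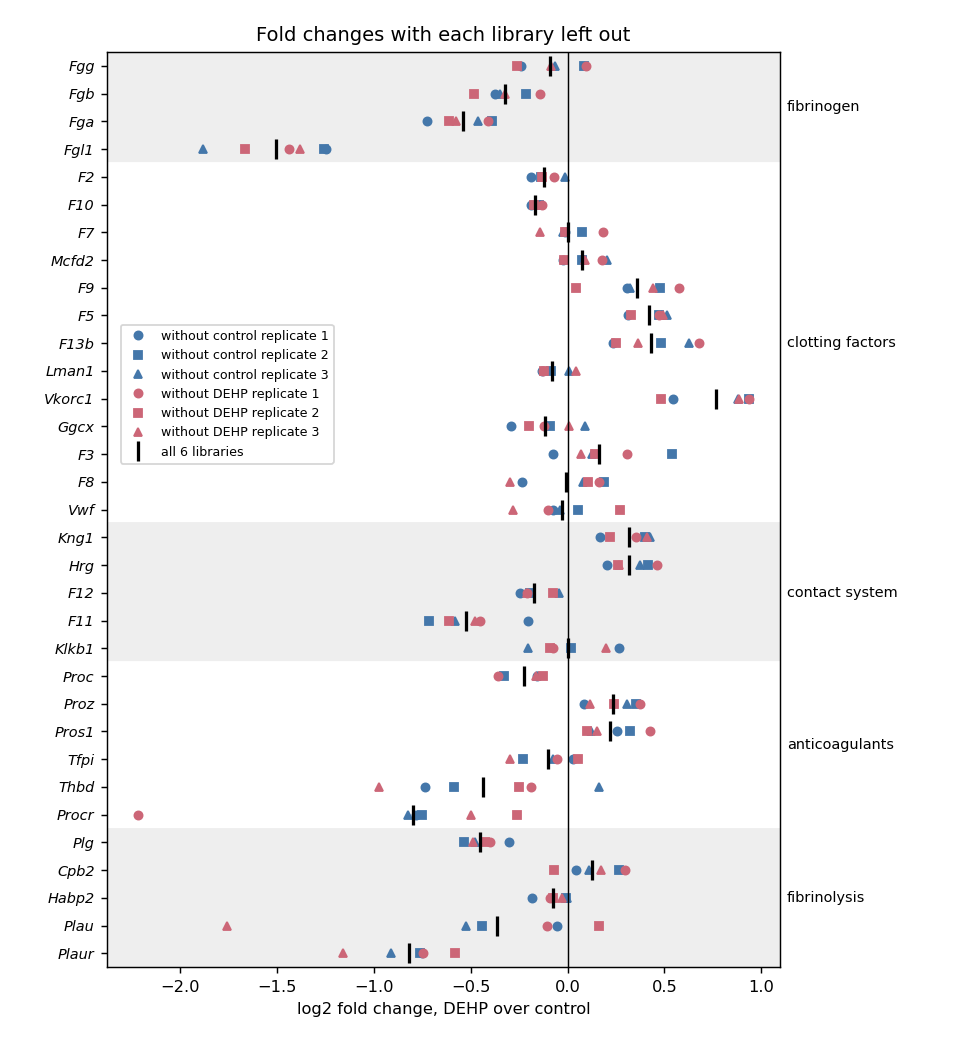
Log2 fold change of each tested member with all 6 libraries (black bar) and with each library left out (blue, a control library left out; red, a DEHP library). Of 33 members, 20 keep their sign in all 6 fits and 13 do not; Fgl1 spans -1.88 to -1.25, and Plg -0.53 to -0.30.

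A further list held 29 genes that act on these proteins (serpins, receptors, binding partners), of which 22 were tested and none passed. At an unadjusted p of 0.05 3 were higher and 4 lower, 31.8% against 13.1% of all genes. Tfpi2, a relative of Tfpi, had 5.81, 9.72 and 11.2 CPM in controls and 17.3, 18.0 and 17.2 with DEHP (log2 fold change 0.98 ± 0.27, adjusted p = 0.191). Serpina10, the partner of protein Z in blocking factor Xa, had 337, 339 and 195 CPM in controls and 185, 168 and 154 with DEHP (-0.78 ± 0.23, adjusted p = 0.200). Plgrkt, a plasminogen receptor, had 29.5, 19.4 and 6.47 against 7.09, 6.11 and 8.75 CPM (-1.34 ± 0.46, adjusted p = 0.296). In both, control replicates 1 and 2 were above the other 4 libraries, as for Fgl1. Gas6, a vitamin K-dependent growth factor related to protein S, had 86.2, 92.5 and 77.8 against 58.7, 31.8 and 62.1 CPM (-0.75 ± 0.24, adjusted p = 0.236). Hgfac, a protease related to factor XII, had -0.47 ± 0.19 (adjusted p = 0.341). Vkorc1l1, the relative of Vkorc1, had 35.8, 41.5 and 40.3 against 47.0, 71.0 and 46.0 CPM (0.48 ± 0.21, adjusted p = 0.364), and DEHP replicate 2 was the highest, as for Vkorc1. Serpinc1, antithrombin, stood at 3332 ± 482 and 3010 ± 243 CPM (SD, n = 3, log2 fold change -0.15 ± 0.20, adjusted p = 0.799).

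Of 19 regulators of liver clotting genes, 18 were tested and none passed, while 1 higher and 2 lower had an unadjusted p under 0.05 (16.7%, against 13.1% of all genes). Stat3, which carries the interleukin-6 signal to fibrinogen genes, had 114, 116 and 96.9 CPM in controls and 82.9, 73.2 and 89.2 in exposed livers, without overlap (log2 fold change -0.42 ± 0.19, adjusted p = 0.368). Foxa3, a forkhead factor of hepatocytes, had -0.45 ± 0.19 (adjusted p = 0.356). Hnf4a and Cebpa, factors that many clotting genes depend on in liver, had -0.06 ± 0.20 and 0.02 ± 0.22 (adjusted p = 0.937 and 0.979).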

How the data were processed

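Whole-number read counts per gene were deposited in 1 table for 6 libraries. Genome build GRCm38.p6 is named in the submitters' processing notes; aligner, counter and strand setting: not given in the sources used here. Library preparation marks strand, per the labels' protocols. Gene identifiers are of the C57BL/6NJ annotation, and coordinates other than promoters are the table's. These coordinates differ from those of GRCm38.p6. Fga starts at 85967660 on chromosome 3 of the table, while its promoter window on GRCm38.p6 ends at 83026152. Groups rest on the sample titles, since the series' design text is about HepG2 cells and bisulfite sequencing. Columns were matched by group word and replicate number. The 1284 of 42380 rows without a gene name stayed out. They held 2.73% to 2.91% of counts in controls and 3.42% to 4.28% with DEHP.

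The test was the robust quasi-likelihood test of edgeR 4.0.16 (R 4.3.3) on these counts, after filterByExpr (minimum count 10), and TMM scaling, without covariates, two-sided, with Benjamini-Hochberg over 12468 genes, threshold 0.05. Standard errors come from the F statistic, and 95% intervals from its degrees of freedom. Ratios were tested with scipy 1.17.1. Alternatives included DESeq2 1.42.0, limma-voom (limma 3.58.1), other scaling and filters, a replicate block and left-out libraries. On simulated counts for this comparison (12174 genes), 24.5% of 94 genes with a log2 change of 1 and 82.5% of 97 with one of 2 were recovered. No pair of replicates agreed within counting noise (chi-square per degree of freedom at least 30.6).

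Members and lists were chosen with earlier results of these data known. All members are reported, with full statistics for those at an unadjusted p under 0.05 and the most abundant of each class. From the pathway and regulator lists the 8 smallest p-values and 4 fixed genes are named, of which 1 is not reported here.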

Additional observations from a re-analysis of the deposited data

How the results depend on the processing

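Over all genes the count of calls was 9, against 272 with DESeq2, 496 with no low-count filter and 0 without control replicates 1 and 2 (edgeR, 642 at an unadjusted p of 0.05). With single libraries left out it ran from 5 (without control replicate 1 or DEHP replicate 3) to 400 (without control replicate 3). Among the members the count was 0, against 2 with no low-count filter, and ran from 0 to 1 (Fgl1, without control replicate 3) with single libraries left out.

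Of the refits of single members, 452 kept direction and side of the threshold, 3 passed it and 38 changed sign, all of the last for values that never passed. The 452 include Procr and Plaur with DESeq2, which kept direction but had no adjusted p. F8 (-0.01) was 0.0067 with RLE scaling and with DESeq2, 0.0071 with a mean of at least 1 CPM, 0.0046 with unnamed rows added, 0.021 with no filter and 0.028 with limma-voom. F7 (0.00) was -0.018 with limma-voom and with the replicate block. Without control replicates 1 and 2, Vwf was 0.048, Mcfd2 -0.11 and Plau 0.10. With single libraries left out, the ranges were -0.072 to 0.30 for Cpb2, -0.077 to 0.54 for F3, -0.14 to 0.18 for F7, -0.30 to 0.19 for F8, -0.26 to 0.097 for Fgg, -0.29 to 0.090 for Ggcx, -0.20 to 0.26 for Klkb1, -0.13 to 0.044 for Lman1, -0.025 to 0.21 for Mcfd2, -1.76 to 0.16 for Plau, -0.29 to 0.052 for Tfpi, -0.97 to 0.16 for Thbd and -0.28 to 0.27 for Vwf. The cause was not tested.

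Replicate numbers showed no sign of pairing over the genes tested: deviations of same-numbered libraries correlated at -0.02, 0.06 and -0.03. A pairing that touches few genes cannot be seen in this way. With the replicate block 6 genes were called over all genes and 0 members. With 1 library in a group, it was assumed to vary like the other group.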
